A study of Mus musculus with 2 samples.

Results

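ITL5GL is the deposited name of intratelencephalic glutamatergic neurons of cortical layer 5. Its members here were all nuclei that carry that name in the deposited tables, 1422 of 16314 nuclei. Replicate 1 gave 641 members among 7440 nuclei, replicate 2 gave 781 among 8874. Both are 10x droplet libraries of chromatin accessibility in single nuclei (snATAC-seq). The nuclei were from the MOp-2 dissection (slice 3, primary motor cortex) of male C57BL/6J mice of 56 to 63 days, and no treatment is named. The methods describe pooling of tissue over several same-sex mice in a biological replicate, without a separate statement for the 10x libraries, so the spread between the libraries may be partly technical. There is 1 condition. ITL5GL was therefore compared with the 3 other intratelencephalic names (ITL23GL, ITL4GL and ITL6GL, for layers 2/3, 4 and 6) and with PTGL, the pyramidal tract neurons of layer 5, within each library.

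Intratelencephalic neurons send their axons within the telencephalon, to other cortical areas of both hemispheres and to the striatum. Layer 5 holds them beside pyramidal tract neurons, whose axons leave the telencephalon for the brainstem and the spinal cord. In ATAC-seq, the transposase Tn5 cuts open chromatin and leaves fragments from accessible DNA, and the pattern of these fragments over the genome is what separates cell types. The number of unique fragments in a nucleus is the depth at which that pattern was seen.

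The study lists Ovol2 and Rorb among the markers of ITL5GL. Ovol2 encodes a zinc finger transcription factor and lies on the minus strand of chromosome 2, from 144305175 to 144332146 (mm10, GENCODE M21). Rorb, a nuclear receptor gene known from layer 4 and layer 5 neurons, lies on the minus strand of chromosome 19, from 18930605 to 19111196. Both are annotated as protein-coding genes. Both are also listed for ITL4GL, so neither is listed for ITL5GL alone. The deposited tables hold no value per gene, so the name could not be checked against accessibility at these markers. Fezf2, which the study lists for PTGL, was likewise without a value.

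ITL5GL made up 8.62% of the nuclei in replicate 1 (exact Clopper-Pearson 95% interval 7.99 to 9.28) and 8.80% in replicate 2 (8.22 to 9.41), a mean of 8.71% ± 0.131 (SD, n = 2 libraries). It was number 5 of 17 names by nuclei in each library. Among the 4 intratelencephalic names its share was 21.6% of 2965 nuclei (20.1 to 23.1) and 23.5% of 3326 (22.0 to 25.0), and among glutamatergic nuclei it was 16.6% ± 0.0717 (SD, n = 2). These intervals cover counting error only. With 2 libraries, an exact two-sided sign-flip permutation can give no p below 0.5, and nuclei are not replicates, so each comparison is given as its value in each library with the SD over both.

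The share of ITL5GL in all nuclei differed little between the libraries, with a log2 ratio of replicate 2 to replicate 1 of 0.03 (95% counting interval -0.11 to 0.17). The ratio was 0.01 (-0.13 to 0.15) among glutamatergic nuclei and 0.12 (-0.01 to 0.25) among intratelencephalic nuclei. All 3 intervals included 0. ITL6GL, the neighbouring deep-layer name, was at 0.10 (-0.05 to 0.25) in all nuclei and at 0.19 (0.05 to 0.33) among intratelencephalic nuclei.

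The balance of ITL5GL against other names was less even. Replicate 1 held 0.548 ITL5GL nuclei for each ITL23GL nucleus and replicate 2 held 0.656, a log2 change of 0.26 (95% counting interval 0.07 to 0.45). For each PTGL nucleus there were 3.48 and 2.40 ITL5GL nuclei, a log2 change of -0.54 (-0.84 to -0.24). Both intervals excluded 0, and in both it was the other name whose share moved more than that of ITL5GL. Of the nuclei named for layer 5, ITL5GL or PTGL, ITL5GL made up 77.7% of 825 (74.7 to 80.5) in replicate 1 and 70.6% of 1107 (67.8 to 73.2) in replicate 2. Against ITL4GL there were 1.10 and 1.26 ITL5GL nuclei per nucleus (log2 change 0.19, -0.03 to 0.41), and against ITL6GL 1.12 and 1.07 (-0.07, -0.29 to 0.15). The intervals of these changes included 0.

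**Figure D1:**
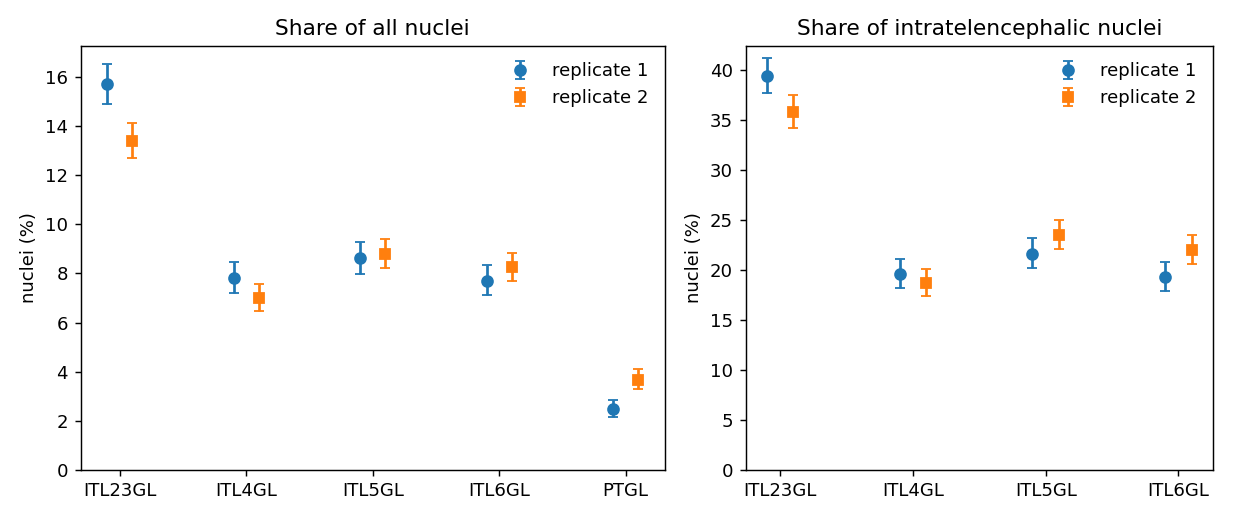
Share of nuclei (%) for the 4 intratelencephalic names and PTGL, out of all nuclei (left) and for the intratelencephalic names out of their own sum (right), as points for replicates 1 and 2 with exact 95% binomial intervals (counting error only). ITL5GL sits at 8.62% and 8.80% of all nuclei with overlapping intervals, where PTGL is higher and ITL23GL lower in replicate 2.

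ITL5GL nuclei were deeply covered. The lowest, median and highest unique fragment counts were 1010, 9370 and 27762 in replicate 1 and 1038, 8370 and 24316 in replicate 2, and the medians averaged 8870 ± 707 (SD, n = 2 libraries). The median was number 2 of 17 names in each library, behind PTGL. The name held 12.7% and 12.6% of all unique fragments, 6132367 and 6960931, which is above its share of nuclei.

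Each step of the fragment counts ran the same way between the libraries. Total fragments of an ITL5GL nucleus were 1200 at the lowest, 11315 at the median and 34034 at the highest in replicate 1, and 1245, 10214 and 29629 in replicate 2. Uniquely mapped fragments had medians of 10869 and 9861, and properly paired fragments of 10812 and 9816. The median was lower in replicate 2 in all 4 counts.

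Depth was also more widely spread in replicate 2. The quartiles of unique fragments in ITL5GL were 7626 and 11314 in replicate 1 and 5997 and 11400 in replicate 2, so the upper quartile was 1.48 times the lower in replicate 1 and 1.90 times in replicate 2. The 5th and 95th percentiles were 4038 and 15459, then 2846 and 16150. The upper part of the distribution was thus alike in the libraries and the lower part reached further down in replicate 2. Nuclei under 5000 unique fragments were 47 of 641 in replicate 1 (7.33%, 5.44 to 9.63) and 119 of 781 in replicate 2 (15.2%, 12.8 to 18.0). The other names also had larger shares of such nuclei in replicate 2, with 12.2% and 19.7% in ITL23GL, 14.3% and 24.1% in ITL4GL, 9.60% and 19.0% in ITL6GL, and 6.52% and 12.3% in PTGL.

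Within a library, ITL5GL had a higher median of unique fragments than each other intratelencephalic name and a lower one than PTGL. Against ITL4GL, whose medians were 7393 and 7249, the ratio was 1.27 in replicate 1 and 1.15 in replicate 2, a mean log2 ratio of 0.27 ± 0.095 (SD, n = 2 libraries). Against ITL23GL (8576 and 7874) the ratio was 1.09 and 1.06, with a mean log2 ratio of 0.11 ± 0.028. ITL6GL (8843 and 7867.5) came closest, at 1.06 in each library and a mean log2 ratio of 0.09 ± 0.0041. These differences had the same sign in both libraries and exceeded the SD between them, though those against ITL23GL and ITL6GL were below 10%.

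PTGL lay above ITL5GL, with medians of 10997.5 and 10524, so that the ratio of ITL5GL to PTGL was 0.852 and 0.795 (mean log2 ratio -0.28 ± 0.070, SD, n = 2). With the deepest 5% of nuclei in each library left out, the mean log2 ratio was -0.13, of the same sign and more than 1.5 times smaller. The order of ITL23GL and ITL6GL, which rank 3 and 4 among these names, changed between the libraries, while PTGL, ITL5GL and ITL4GL kept ranks 1, 2 and 5.

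The distributions overlapped broadly. In replicate 1 the ITL5GL nucleus was the deeper one in 58.8% of all pairs with an ITL23GL nucleus, 68.3% with ITL4GL, 55.6% with ITL6GL and 37.2% with PTGL. In replicate 2 the values were 55.6%, 60.2%, 55.3% and 38.2%. Nuclei of at least 10000 unique fragments made up 40.7% and 35.3% of ITL5GL and 59.2% and 56.1% of PTGL.

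**Figure D2:**
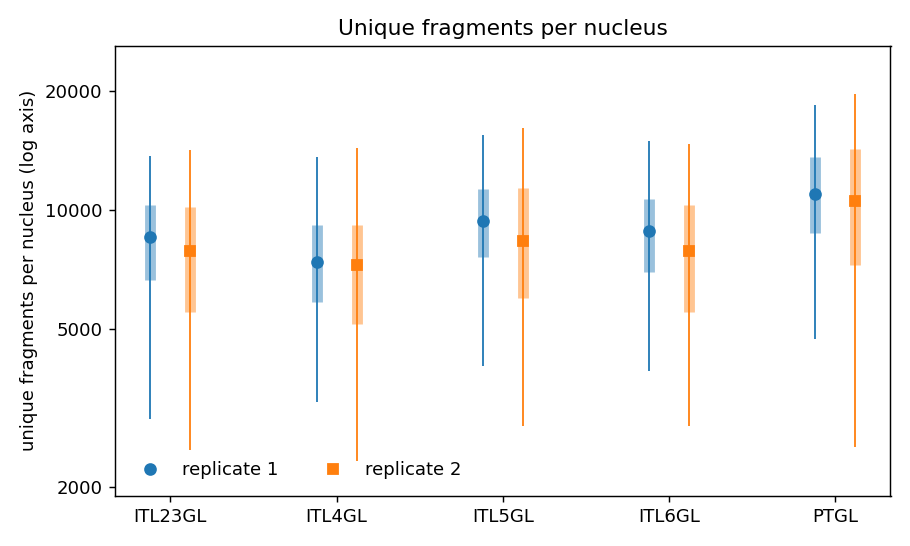
Unique fragments per nucleus (log axis) for the 4 intratelencephalic names and PTGL in replicates 1 and 2, with the median as a point, the quartiles as a thick bar and the 5th to 95th percentiles as a thin line. The ITL5GL medians of 9370 and 8370 lie above those of the other intratelencephalic names and below those of PTGL, with wide overlap.

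A minimum on fragments changes how much of a sample ITL5GL makes up. When the nuclei of these 5 names were ordered by unique fragments within a library and divided into 10 bins of like size, ITL5GL made up 14.3% of the lowest bin and 26.7% of the highest in replicate 1, and 16.7% and 26.5% in replicate 2. In replicate 1 the share was highest in bin 8 at 27.6%, and in replicate 2 in bin 9 at 27.9%. PTGL went from 3.49% to 16.8% and from 7.65% to 25.1%. ITL5GL thus gained share over the upper bins in each library, and PTGL gained most at the very top. Over all 17 names the lowest bin held 2.02% and 2.59% ITL5GL nuclei and the highest bin 21.2% and 20.6%. The lowest share was not at the bottom but in bin 2, with 0.538% and 0.564%, on 4 and 5 nuclei. The share of ITL5GL in all nuclei was accordingly 9.51% when at least 2000 unique fragments were asked for and 13.8% at 5000.

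**Figure D3:**
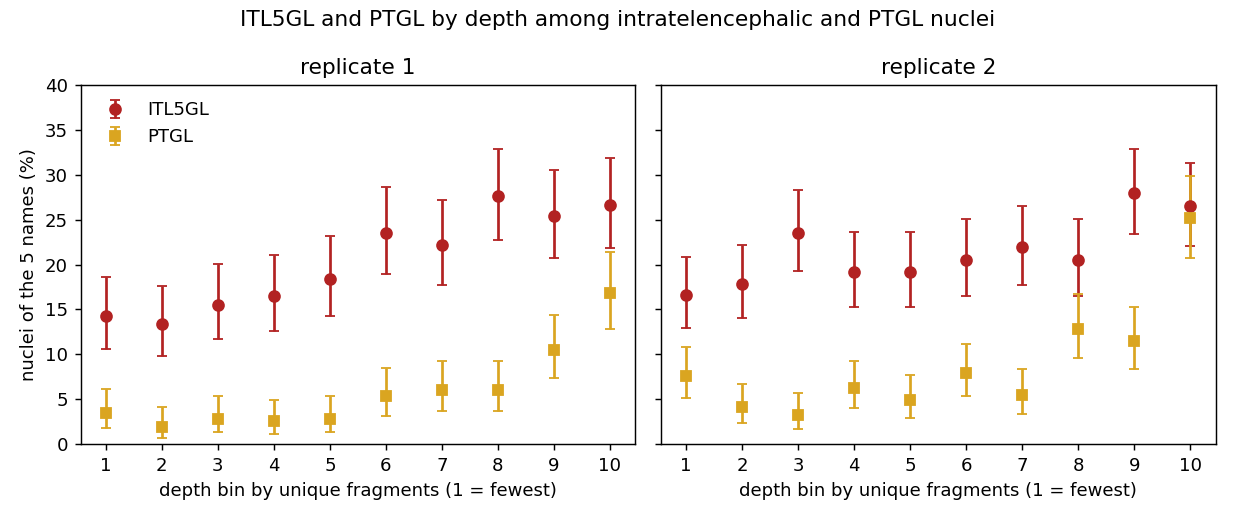
Share of ITL5GL and of PTGL (%) in each of 10 bins of the nuclei of the 4 intratelencephalic names and PTGL, ordered by unique fragments within replicate 1 (left) and replicate 2 (right), with exact 95% binomial intervals. ITL5GL goes from 14.3% and 16.7% in the lowest bin to 26.7% and 26.5% in the highest.

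Mapping and pairing hardly told ITL5GL from the other names. The median share of uniquely mapped fragments was 96.2% in replicate 1 and 96.3% in replicate 2, and 99.5% of these were properly paired in each. ITL5GL was above ITL4GL by 0.109 and 0.110 percentage points in the mapped share and above PTGL by 0.102 and 0.136. Against ITL23GL the difference was 0.0958 and 0.0191, uneven between the libraries, and against ITL6GL it was 0.0102 and -0.0106, of opposite sign. In the paired share, ITL5GL differed from ITL23GL by 0.0164 and 0.00879 points, from ITL4GL by -0.00850 and -0.0251, from ITL6GL by 0.00951 and 0.00469, and from PTGL by 0.00666 and -0.00302. The paired differences from ITL23GL and ITL6GL changed sign on average among nuclei of like total fragments, to -0.0050 and -0.0071.

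Duplicates made up a median of 13.5% of the properly paired fragments of an ITL5GL nucleus in replicate 1 (quartiles 13.0 and 13.9) and 14.5% in replicate 2 (13.9 and 14.9). The duplicate share was thus about 1 point higher in replicate 2, and differences between names were much smaller. The difference of ITL5GL was -0.0774 and -0.0749 points from ITL23GL, -0.108 and -0.0902 from ITL4GL, and -0.120 and -0.0967 from ITL6GL, and ITL5GL lay above PTGL by 0.0715 and 0.0287. Within ITL5GL the duplicate share moved with depth, from 13.2% in the quartile with the fewest unique fragments to 13.7% in the quartile with the most in replicate 1, and from 14.1% to 14.6% in replicate 2. Among nuclei within the quartiles of total fragments of ITL5GL, the differences widened to -0.152 and -0.141 for ITL23GL, -0.238 and -0.253 for ITL4GL, and -0.158 and -0.147 for ITL6GL. Against PTGL the difference at like total depth was 0.132 and 0.0361, uneven between the libraries. At like total depth ITL5GL therefore had a lower median duplicate share than the other intratelencephalic names in both libraries. These differences were small against the quartiles of ITL5GL itself.

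In the deposited UMAP embedding, ITL5GL formed an arc that runs from the edge of ITL4GL to the edge of ITL6GL. Its median position was 5.03 and 5.94 on the coordinates in replicate 1 and 4.97 and 6.06 in replicate 2, a shift of 0.131 against interquartile ranges of 2.58 and 0.952 in replicate 1. ITL4GL was centred at 6.60 and 1.80, ITL6GL at 2.72 and 4.23, and PTGL at 12.0 and 2.03 in replicate 1. Names and embedding both derive from the same accessibility, so positions describe the names and do not test them. Distances in such an embedding have no unit and are not to scale over long ranges. Whether other nuclei entered the embedding is not given in the methods.

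ITL6GL and ITL4GL were the names next to ITL5GL. Of the 30 nearest neighbours of an ITL5GL nucleus, 96.5% in replicate 1 and 96.9% in replicate 2 carried its own name (mean 96.7% ± 0.283, SD, n = 2). ITL6GL supplied 2.57% and 2.68%, and ITL4GL 0.967% and 0.457%. The ITL6GL contact differed little between the libraries, while the ITL4GL contact in replicate 2 was below that in replicate 1. ITL6GL neighbours were met by 46 and 49 ITL5GL nuclei, and ITL4GL neighbours by 25 and 16. Some ITL4GL nuclei lay among ITL6GL, so part of the ITL4GL contact was at the ITL6GL end of the arc.

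PTGL, which shares layer 5, supplied none of these 30 neighbours. No ITL5GL nucleus had a PTGL neighbour among its 30, 0 of 641 and 0 of 781, which allows shares of up to 0.468% and 0.384%. The same counts of 0 held for ITL23GL, CTGL and NPGL, and for every name other than ITL4GL, ITL5GL and ITL6GL, among the 30 nearest neighbours from both libraries. Among 100 neighbours, 7 and 3 ITL5GL nuclei met another name (CTGL, PTGL or VEC, vascular endothelial cells), which made up 0.0203% and 0.00512% of the neighbours. With neighbours of the own library only, 1 nucleus of replicate 2 met PTGL. In the other direction, 2.97% and 2.39% of the neighbours of ITL6GL nuclei and 1.01% and 0.734% of those of ITL4GL nuclei were ITL5GL, and none of those of PTGL nuclei were.

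The nearest ITL6GL nucleus lay at a median distance of 1.21 and 1.19 from an ITL5GL nucleus. The nearest ITL4GL nucleus lay at 1.86 and 1.98, the nearest PTGL nucleus at 3.41 and 3.36, and the nearest ITL23GL nucleus at 4.48 and 4.46. This order was the same for the ITL5GL nuclei of each library. The distances were taken to nuclei of both libraries, so the likeness is not an independent repeat. Within a distance of 0.5 there was an ITL6GL nucleus for 106 and 113 ITL5GL nuclei, an ITL4GL nucleus for 54 and 39, a PTGL nucleus for 6 and 4, and an ITL23GL nucleus for none. The PTGL values rested on 2 PTGL nuclei of replicate 2 that had no PTGL neighbour of their own. The ITL23GL values rested on 1 stray nucleus of replicate 1 near 1.575 and 3.675, among ITL6GL. ITL23GL itself was centred at 5.61 and -4.74 in replicate 1. Without the 2 PTGL nuclei, a choice made after seeing the data, the nearest PTGL nucleus lay at a median of 7.11 and 7.19 and at no less than 4.10 and 3.87. The stray ITL23GL nucleus was not left out in turn, so the order with strays of both names left out was not computed. All other ITL23GL nuclei lay in squares centred at -2.925 or lower on coordinate 2.

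**Figure D4:**
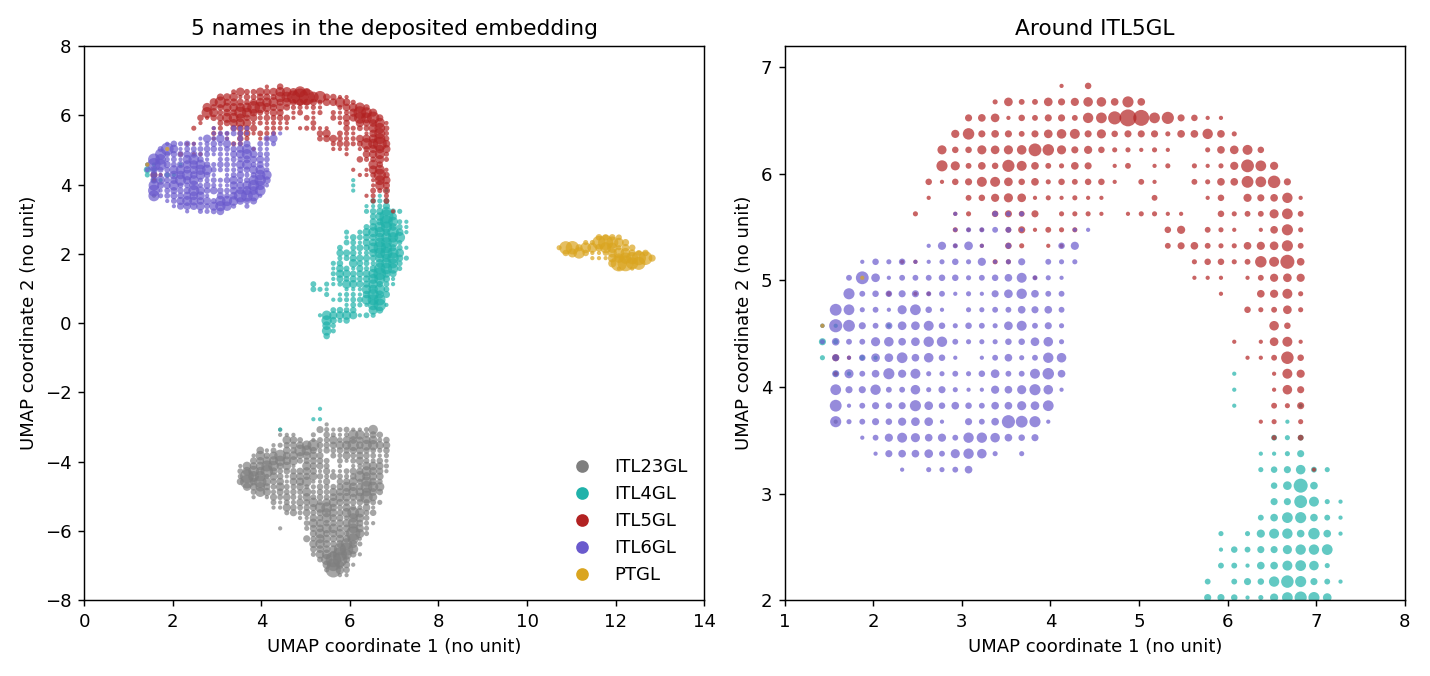
Deposited UMAP coordinates (no unit) of the 4 intratelencephalic names and PTGL from both libraries, counted in squares of 0.15, with larger points for more nuclei (left), and the surroundings of ITL5GL (right). The ITL5GL arc meets ITL4GL at one end and ITL6GL at the other, and the body of PTGL lies apart. Stray nuclei of PTGL, ITL4GL and ITL23GL lie among or beside ITL6GL, and 12 ITL4GL nuclei and 1 ITL23GL nucleus fall outside the left panel.

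Most ITL5GL nuclei had no neighbour of another name. All 30 neighbours were ITL5GL for 574 nuclei in replicate 1 (89.5%, 86.9 to 91.8) and 719 in replicate 2 (92.1%, 89.9 to 93.9). The same was true of 97.1% and 95.7% of ITL23GL nuclei, 94.7% and 93.9% of ITL4GL, 70.5% and 70.2% of ITL6GL, and 100% and 99.4% of PTGL. ITL6GL stood lowest although its mean own share, 95.9% and 96.2%, was close to that of ITL5GL. ITL6GL contacts were thus spread over more nuclei, and those of ITL5GL sat in fewer. In 17 and 21 ITL5GL nuclei (2.65% and 2.69%) fewer than 50% of the neighbours were ITL5GL. Of these, 11 and 18 lay mostly among ITL6GL and 3 and 3 mostly among ITL4GL, and 1 nucleus of replicate 2 had no ITL5GL neighbour at all.

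ITL5GL nuclei that lay among other names tended to hold fewer fragments. Nuclei with fewer than 50% own neighbours had median unique fragment counts of 7926 in replicate 1 and 5893 in replicate 2, against 9385.5 and 8460.5 in the rest of ITL5GL. By quartile of unique fragments within ITL5GL, from fewest to most, the own share was 94.5%, 96.7%, 96.7% and 98.0% in replicate 1 and 93.9%, 96.6%, 98.5% and 98.4% in replicate 2. Own shares in the highest quartile exceeded those in the lowest by 3.47 and 4.50 percentage points (mean 3.98 ± 0.730, SD, n = 2 libraries). With only nuclei of at least 5000 unique fragments the mean difference was 2.42 points. Of the nuclei with fewer than 50% own neighbours, 8 of 17 and 11 of 21 were in the lowest quartile and 1 in the highest in each library.

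In the names beside ITL5GL the difference had the opposite sign. In ITL4GL the own share of the highest quartile minus that of the lowest was -4.34 and -7.71 points, and in ITL6GL it was -6.54 and -1.44. ITL4GL nuclei with fewer than 50% own neighbours, 17 and 26 of them, had medians of 10327 and 10333.5 unique fragments, above the 7363 and 7123.5 of the rest of ITL4GL. In ITL6GL the corresponding 9 and 11 nuclei were at 12728 in replicate 1 but at 7412 in replicate 2, so the pattern was less even there. By quartile the own share of ITL6GL was 98.1%, 97.5%, 96.6% and 91.5% in replicate 1 but 96.8%, 95.6%, 97.1% and 95.3% in replicate 2, where it followed no order. In ITL6GL, ITL5GL supplied 0.949% of the neighbours of the lowest quartile and 6.48% of those of the highest in replicate 1, and 2.04% and 3.06% in replicate 2. In ITL4GL the ITL5GL supply was 1.51% and 1.46% in replicate 1 and 0.0641% and 1.50% in replicate 2. Neighbours of the deepest ITL4GL quartile were more often ITL6GL (2.97% and 4.10%) than ITL5GL, and CTGL, corticothalamic neurons, supplied 1.32% and 2.33%, so the lower own share of deep ITL4GL nuclei was mostly not a contact with ITL5GL. The same difference was -0.0585 and 0.168 points in ITL23GL and 0 and 1.22 in PTGL. Within ITL5GL, the mapped share differed little along the same quartiles, from 96.3% to 96.1% and from 96.5% to 96.2%. The part of depth in the naming was not tested.

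**Figure D5:**
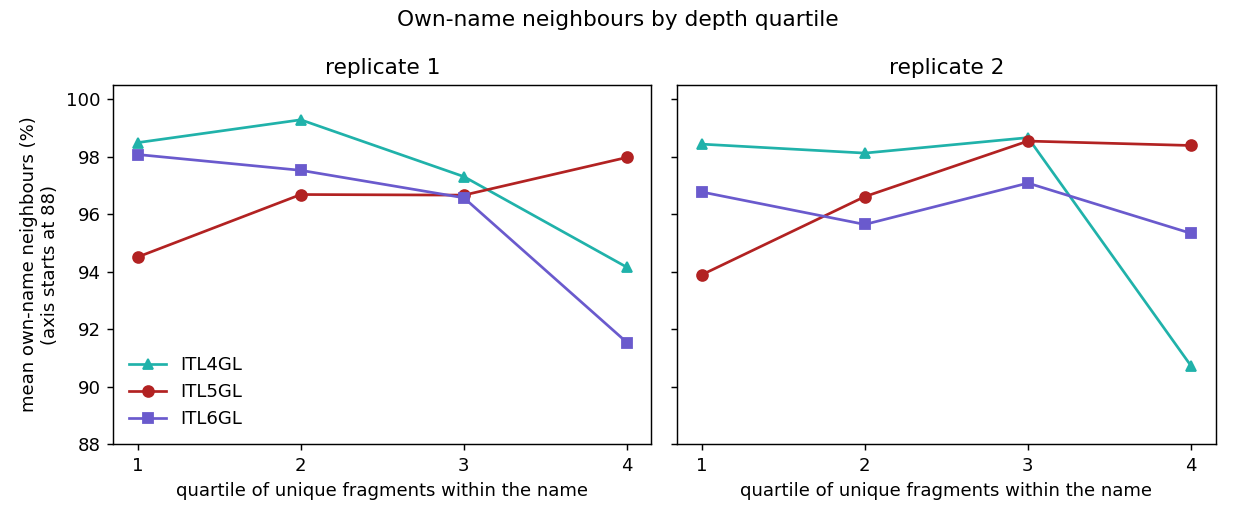
Mean share of the 30 nearest neighbours that carry the nucleus's own name (%, axis from 88) by quartile of unique fragments within the name, for ITL4GL, ITL5GL and ITL6GL in replicates 1 and 2. ITL5GL goes up from 94.5% and 93.9% in the lowest quartile to 98.0% and 98.4% in the highest, where ITL4GL and ITL6GL are lower in the highest quartile than in the lowest, without an order by quartile for ITL6GL in replicate 2.

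Depth also varied along the arc. ITL5GL nuclei of both libraries were ordered by their median distance to the 30 nearest ITL4GL nuclei relative to that to the 30 nearest ITL6GL nuclei. They were then divided into 5 segments of like size. The ITL4GL nuclei that lay among ITL6GL were included in this order, so the segments do not strictly follow the arc. ITL5GL nuclei near those strays at the ITL6GL end can fall in a middle segment. In replicate 1, segment 2 had 0.744% ITL4GL and 1.10% ITL6GL neighbours, and segment 5 had 0% ITL4GL neighbours. From segment 1, relatively closest to ITL4GL, to segment 5, relatively closest to ITL6GL, median unique fragments were 8303, 9596.5, 9497, 9574 and 10145.5 in replicate 1. They were 7455, 8543, 8305, 8621.5 and 9413 in replicate 2. In both libraries segment 1 was the lowest and segment 5 the highest, a ratio of 1.22 and 1.26. When distances to the centroids of both names were used instead, a choice made after seeing the data, the ratio was 1.15 and 1.11 and the highest segment was the 3rd in replicate 1 and the 4th in replicate 2. The low median beside ITL4GL was thus found under both definitions, and the highest median in segment 5 under only 1. At 8303 and 7455, the segment beside ITL4GL lay between the median of ITL4GL itself and that of all ITL5GL in each library.

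The libraries were mixed within ITL5GL. Of the ITL5GL neighbours of an ITL5GL nucleus, 54.1% came from the other library in replicate 1, where random mixing gives 55.0%, and 43.8% in replicate 2, where it gives 45.1%. The ratio to random mixing was 0.985 and 0.972 (mean 0.978 ± 0.00903, SD, n = 2). It was 0.979 and 1.002 in ITL23GL, 0.977 and 1.011 in ITL4GL, 0.995 and 1.008 in ITL6GL, and 0.913 and 0.993 in PTGL. ITL5GL and PTGL were thus slightly below 1 in both libraries, and the other names only in replicate 1. In the 5 segments by nearest nuclei, replicate 2 supplied 51.2%, 54.2%, 57.7%, 60.6% and 50.9% of the nuclei. The exact 95% interval of each included the 54.9% found over all ITL5GL. No segment belonged to 1 library.

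Of the cell barcodes, 105 occurred in both libraries. They included 7 ITL5GL nuclei in replicate 1 and 9 in replicate 2, none of which was ITL5GL in both. Without these barcodes the share of ITL5GL was 8.72% and its own-neighbour share 96.6%.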

How the data were processed

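For each library the authors deposited a per-nucleus table with counts of fragments (total, uniquely mapped, properly paired, unique, mitochondrial). The authors also deposited the log10 of the unique count, and 2 UMAP coordinates, treated here as a score without a unit, beside the name of each nucleus. The methods describe alignment with bwa to mm10, filters on mapping quality, proper pairs and fragment length, and duplicate removal in SnapTools. They then describe a filter of nuclei on fragment number and TSS enrichment, and removal of barcode collisions and, by dataset with a modified Scrublet, of doublets. No doublet caller was run here. Cell Ranger ATAC, BWA, mm10 and GRCm38 are named in the submitters' processing notes, with versions not given in the sources used here. Column meanings were read from SnapTools' usual names. The lowest deposited unique count was 1000 in each library, and the mitochondrial count was 0 in every nucleus. Replicate 1 held 48179226 unique fragments and replicate 2 held 55337466.

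From these, shares with exact Clopper-Pearson 95% intervals, medians, ratios of medians within a library, the shares of mapped, paired and duplicate fragments, and the names of the 30 nearest neighbours (Euclidean, both libraries) were computed per library, then averaged over libraries with their SD. Intervals of log2 ratios of shares used the log method. All intervals, and the limit for a count of 0 (3 counts), cover counting error only. Functions were tested on simulated data. The names described were ITL5GL, the other intratelencephalic names and PTGL, with up to 3 names that take most of the neighbours outside ITL5GL, and the genes Ovol2, Rorb and Fezf2 without values. A further gene of that list is not reported here. Members and lists were chosen with earlier results of these data known.

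The alternatives were minimums of 2000 and 5000 unique fragments, leaving out the deepest 5%, pooling, each library alone, 10 or 100 neighbours, neighbours of the own library, means, total fragments, sums over nuclei and other denominators. Leaving out shared barcodes, keeping nuclei with all neighbours of their own name, the window of total fragments, the centroid order and leaving out stray PTGL nuclei were chosen after seeing the data. Values were computed with pandas 2.3.3, numpy 2.4.6 and scipy 1.17.1 in Python 3.11.15, and figures drawn with matplotlib 3.10.9.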

Additional observations from a re-analysis of the deposited data

How the results depend on the processing

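No main result that has a sign changed it under the alternatives that were run. Of the recomputed values of all main results, 78 moved by less than the SD between the libraries and 17 by more. The 6 values of the share between the libraries, which has no SD, stayed within its counting interval. With 2 libraries, each library alone lies within that SD by construction, and these values are counted in the 78.

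The mean share of ITL5GL was 9.51% above a minimum of 2000 unique fragments, 13.8% above 5000 and 8.04% when the deepest 5% of nuclei were left out, and by construction 16.6% of glutamatergic and 22.6% of intratelencephalic nuclei. The mean log2 ratio of unique fragments to ITL6GL was 0.10 above a minimum of 5000, 0.072 without the deepest 5%, 0.11 with pooled nuclei, 0.11 from means and 0.16 with only nuclei whose neighbours all carried their own name. The SD of this ratio between the libraries was 0.0041 in all nuclei, so small shifts exceed it. The ratio to PTGL was -0.13 without the deepest 5%, and the ratio to ITL23GL 0.15 from means. The own-neighbour share was 97.0% with at least 5000 fragments, 97.0% with 10 neighbours and 96.4% with 100. The rise of the own share from the lowest to the highest quartile of depth was 2.42 points with at least 5000 fragments, and the mixing ratio was 0.992 with 100 neighbours. The cause of these shifts was not tested.

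The log2 ratio of the ITL5GL share between the libraries lay between 0.01 and 0.12 over its settings. Of the 52 other recomputed values, 16 moved by more than the SD. They included the ITL6GL share of neighbours in 6 settings, between 2.39% and 2.82%, and the ratio of the end segments of the arc by centroids (mean log2 ratio 0.17 against 0.31). The distance to PTGL without 2 stray nuclei and the 4 duplicate differences at like total depth were also among them. The stray ITL23GL nucleus was left out in no setting, so the order of PTGL and ITL23GL by distance without strays of both names was not computed. At like total depth 3 small mean differences changed sign, to 0.0077 points in the mapped share against ITL6GL and to -0.0050 and -0.0071 in the paired share against ITL23GL and ITL6GL. No paired analysis was possible because no result comes from a test between groups, all samples being of 1 condition. Comparisons between names were taken within each library. The fragment minimum of 1000 sets which shallow nuclei are seen at all, and no value of doublet score or TSS enrichment per nucleus was used here.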
